A study of Rattus norvegicus with 12 samples.

Results

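Transcripts of 45 enzymes that break down or interconvert amino acids were examined in the livers of obese ZSF1 rats. The enzymes were chosen by name from a list of such enzymes, with earlier results of these data known. Of the 45 enzymes, 41 had a row among the 16478 genes counted, and all 41 passed the filter on low counts. Glul, Afmid, Uroc1 and Mut were not analysed here. The study compared 6 females with 6 males, numbered 7, 8, 9, 10, 12 and 13 and 1 to 6. All 12 were obese adults of the ZSF1 strain, 16 weeks old, untreated, housed conventionally with free access to chow and water, and each gave 1 liver library. ZSF1 is a cross of leptin receptor mutant rat strains whose obese animals carry a defective receptor gene from both parents, so both sexes shared that defect and no lean rats entered the comparison. The labels do not give the feeding state, the hour of death, the litter or the cage.

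The liver is the main site where the amino acids of a meal, or of muscle protein during fasting, are stripped of nitrogen. Transaminases pass the amino group to glutamate, and serine dehydratase, glutaminase and glutamate dehydrogenase free it as ammonia, which neighbouring urea cycle enzymes take up. The carbon skeletons then enter glucose synthesis, the citric acid cycle or ketone body formation. Several of these enzymes are known to be induced by glucagon and glucocorticoid, and some are known to sit in particular zones of the liver lobule: Sds, Gls2 and Hal near the portal vessels, Oat and glutamine synthetase around the central vein.

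Female libraries held between 6763879 and 24837602 gene counts and male libraries between 11381428 and 29232871, totals that did not differ by a 2-sided exact permutation test (p = 0.597). Levels are given as counts per 1000000 (CPM) scaled by TMM factors, and 3 counts corresponded to between 0.103 and 0.444 CPM, below every member in every library. Gene lists for the tissue showed liver: Alb reached 205680 CPM on average in females, and the pancreas genes Prss1, Prss2 and Ins1 and the kidney gene Slc34a1 had 0 counts in all 12 libraries. The 7 listed pancreas genes still summed to between 5.93 and 38.7 CPM in females and between 9.44 and 13.6 CPM in males, nearly all from Cpa1 and Cela1. Some animals stood apart on the enzymes themselves. Female 12 was the lowest or the highest female for 33 of the 41 members, against 8 to 12 for the other females. Male 4 and male 6 were at an end of the male range for 21 and 19, against 6 to 16 for the other males. Where leaving out 1 of these animals, or male 4 and female 12 together, changed the call of a member, that change is given.

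Of the 41 members, 18 (43.9%) had an adjusted p under 0.05 in the edgeR quasi-likelihood test across all genes, beside 43.2% of the 9943 genes tested, so the number that differed was close to the background. The direction was not evenly split. Because the members were chosen with earlier results of these data known, the shares by direction describe these genes and test nothing. Of the 41 members 17 were higher in males (41.5%, background 22.7%) and 1, Oat, was higher in females (2.44%, background 20.5%). The median log2 fold change, females over males, was -0.19 over the members and -0.013 over all tested genes. At a fold of 1.5 or more 9 members were called (background 14.8%), 8 higher in males (background 6.09%) and Oat in females (background 8.73%). For 14 members (34.1%, background 22.8%) the sexes did not overlap, 13 of them higher in males (background 12.8%). Without male 4 and female 12 the counts were 19 higher in males and 2 in females. All members together took 1.27% ± 0.07 of gene counts in females and 1.43% ± 0.13 in males (SD, n = 6 each), with overlapping ranges of 1.15% to 1.35% and 1.25% to 1.60%.

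**Figure D1:**
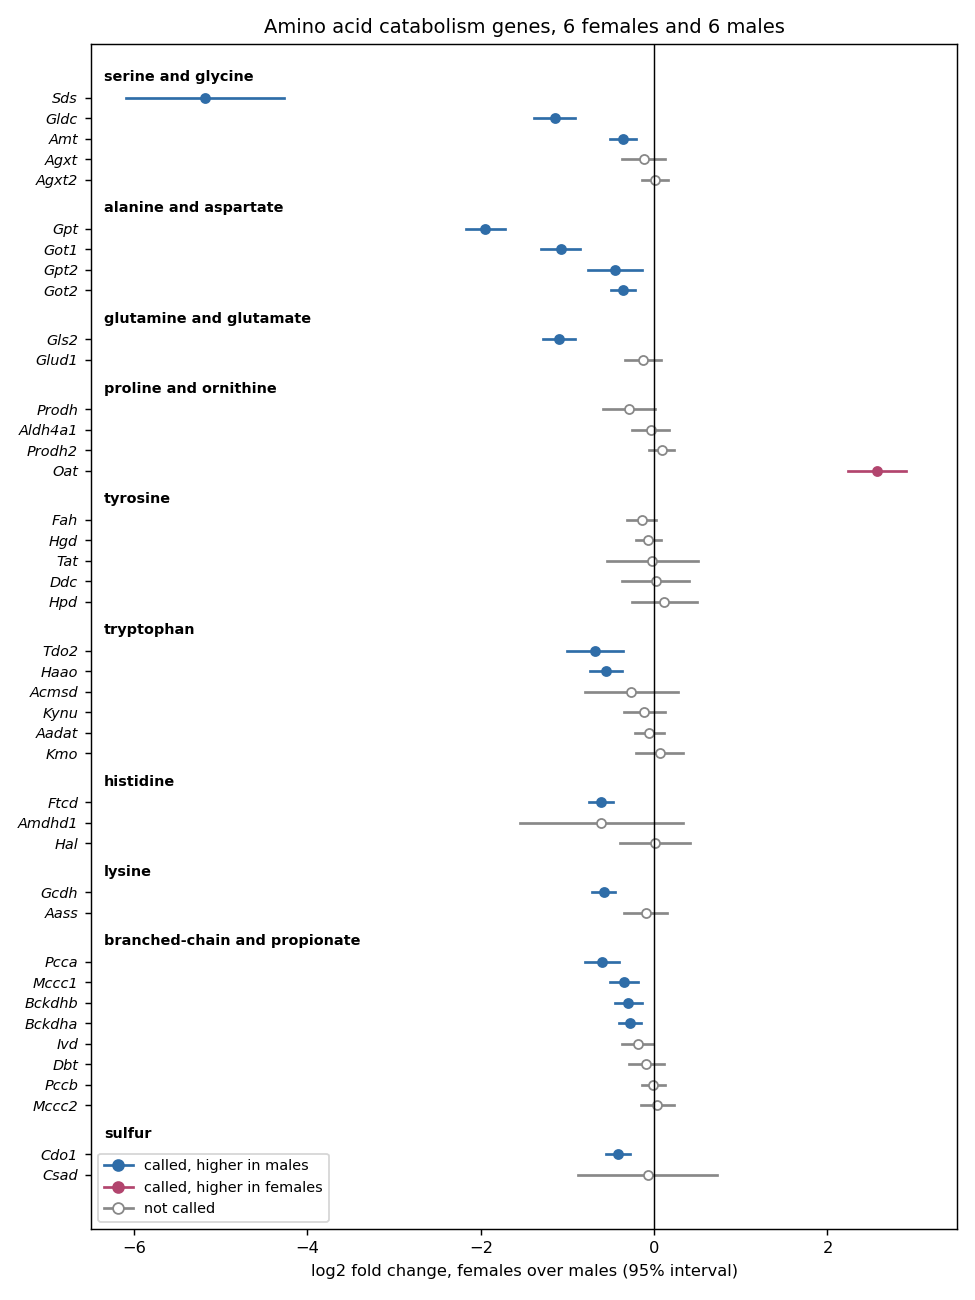
Log2 fold change, females over males, of the 41 members with 95% intervals from the edgeR fit, grouped by amino acid (horizontal axis, log2 units; filled points, adjusted p under 0.05; open points, not called). Sds lies farthest toward males at -5.18 and Oat is the 1 filled point on the female side at 2.57, while all 5 genes of the tyrosine group are open points near 0.

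Of the 5 serine and glycine genes 3 were higher in males (60%, background 22.7%), and they held the widest gap. Sds, serine dehydratase, which turns serine into pyruvate and ammonia, ranged from 2.49 to 6.93 CPM (median 3.44) in females and from 75.1 to 224 CPM (median 145) in males. The 2 ranges were far apart, although the female values rested on only 18 to 166 counts per library. The males themselves fell into a higher set, males 2, 4 and 6 at 223, 195 and 224 CPM, and a lower set, males 1, 3 and 5 at 75.1, 95.6 and 79.7 CPM. Fitted over all animals, Sds was 36.3-fold higher in males (log2 -5.18, SE 0.42, 95% interval 19.3-fold to 68.2-fold, adjusted p = 2.27e-06).

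The glycine cleavage system, which splits glycine into carbon dioxide, ammonia and a folate-bound carbon, showed smaller fold changes. Gldc, its decarboxylase subunit, ranged from 109 to 161 CPM (median 145) in females and from 279 to 415 CPM (median 299) in males, and every male exceeded every female. The fitted difference was 2.22-fold toward males (SE 0.11 on the log2 scale, adjusted p = 1.41e-06). Amt, the aminomethyltransferase of the same system, did not overlap either but was only 1.28-fold higher in males (52.9 ± 5.91 against 67.8 ± 3.08 CPM, adjusted p = 0.000995). The glyoxylate transaminase genes were not called: Agxt averaged 164 ± 35.3 CPM in females and 178 ± 16.2 in males (adjusted p = 0.428, but 0.0236 and higher in males without female 12, the highest female at 230 CPM), and Agxt2 averaged 166 ± 15.4 and 164 ± 10.1 CPM.

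Both transaminases of alanine and both of aspartate were higher in males (100%, background 22.7%). Gpt, the cytosolic alanine transaminase that converts alanine to pyruvate, ranged from 82.4 to 123 CPM (median 112) in females and from 376 to 510 CPM (median 408) in males. Every male was far above every female. The fit gave a 3.86-fold difference (log2 -1.95, SE 0.10, adjusted p = 3.95e-09). Got1, the cytosolic aspartate transaminase, ranged from 78.3 to 93.2 CPM (median 79.6) in females and from 127.01 to 212 CPM (median 179) in males, a 2.11-fold difference with no overlap (adjusted p = 1.88e-06). The mitochondrial forms differed by less. Got2 was 1.28-fold higher in males (400 ± 30.9 against 514 ± 17.4 CPM, adjusted p = 0.000386) and Gpt2 1.37-fold (117 ± 10.2 against 160 ± 40.7 CPM, adjusted p = 0.0233). Gpt2 overlapped, since male 4 at 99.3 CPM lay below every female, and its call was lost without female 10 (adjusted p = 0.0505) or male 6 (adjusted p = 0.0517).

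Gls2, the liver glutaminase that releases ammonia from glutamine, ranged from 172 to 235 CPM (median 216) in females and from 406 to 508 CPM (median 444) in males. No male came near a female value, and the difference was 2.14-fold (log2 -1.10, SE 0.09, adjusted p = 1.99e-07). Glud1, glutamate dehydrogenase, which acts on the glutamate that glutaminase and the transaminases make, averaged 862 ± 69.5 CPM in females and 943 ± 131 in males. It was not called with all animals (adjusted p = 0.300) and was higher in males without male 4 (log2 -0.19, adjusted p = 0.0352), whose 701 CPM was the lowest value of all 12 rats.

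**Figure D2:**
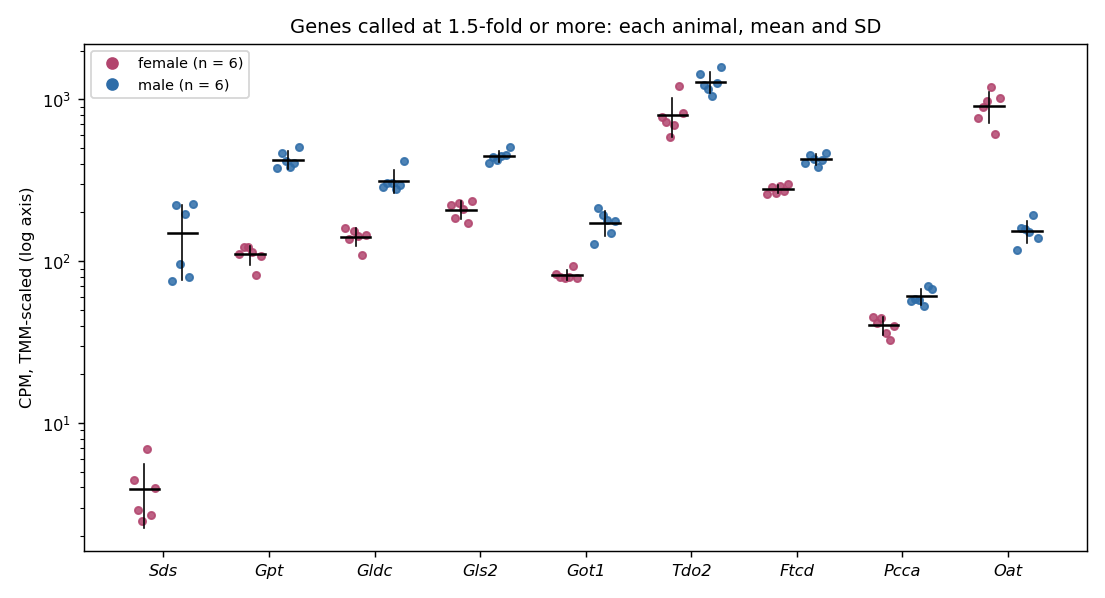
TMM-scaled CPM of each rat (log axis) for the 9 members called at 1.5-fold or more, females left and males right of each gene, with the mean (bar) and SD (line) of 6 rats. The 6 females of Sds sit between 2.49 and 6.93 CPM and the 6 males between 75.1 and 224, Oat shows the reverse order, and Tdo2 is the 1 gene of the 9 in which the sexes overlap.

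Oat was the 1 member higher in females. It encodes ornithine aminotransferase, a mitochondrial enzyme that links ornithine with glutamate semialdehyde and so with proline. Oat ranged from 615 to 1191 CPM (median 936) in females and from 118 to 192 CPM (median 155) in males. The lowest female, female 12, was still above every male. The fitted difference was 5.94-fold (log2 2.57, SE 0.15, 95% interval 4.73-fold to 7.47-fold, adjusted p = 2.01e-08). The enzymes that degrade proline itself were not called. Prodh, proline dehydrogenase, averaged 102 ± 19.95 CPM in females and 125 ± 21.7 in males (adjusted p = 0.112). Prodh2, hydroxyproline dehydrogenase, averaged 263 ± 19.8 and 247 ± 16.9 CPM. Aldh4a1, which oxidizes the glutamate semialdehyde that ornithine and proline both yield, averaged 448 ± 64.1 and 460 ± 42.8 CPM.

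Zone markers were measured beside these genes. Of the 7 periportal markers tested that were not members, 4 had higher levels in males (57.1%, background 22.7%) and 1 in females (14.3%, background 20.5%). Their summed level lay between 6915 and 7667 CPM in females and between 8065 and 11670 CPM in males, with no overlap. These sums include Pck1, and without it the sums of the sexes would overlap. Pck1, the gluconeogenic carboxykinase, differed most in mean CPM among these markers, at 635 ± 557 in females and 2370 ± 352 in males. Its ranges nearly met, at 257 to 1743 CPM in females and 1807 to 2898 CPM in males. Cps1, the first urea cycle enzyme, averaged 3445 and 3097 CPM and was not called, and Aldh1b1 was 31.6-fold higher in females. Of 7 pericentral markers tested that were not members, 3 were higher in females (42.9%, background 20.5%) and 2 in males (28.6%, background 22.7%). Their sums were 1808 to 2516 CPM in females and 1442 to 2268 in males. Lgr5, a pericentral marker, had 0 counts in 2 libraries. In whole liver RNA, fewer cells of a zone and less RNA per cell cannot be told apart. The periportal members did not move as 1 group: Sds and Gls2 were higher in males, while Hal averaged 397 ± 126.6 CPM in females and 395 ± 61.7 in males. The part of the zones in the Sds, Gls2 and Oat results was not tested.

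Of the 6 members that differed at least 2-fold, 4 had an entry in a RefSeq promoter table of build GRCr8, and the 250 bases before their annotated starts are shown because Oat went to the female side and the other 3 to the male side. Capitals mark matches on either strand to CCAAT (read as ATTGG on the other strand) and, in Gls2, to TTCNNNGAA, the letters that STAT factors downstream of the growth hormone receptor are known to bind. The windows are chr1:196797755-196798004 on the minus strand for Oat, chr7:1201629-1201878 on the plus strand for Gls2, and chr1:252329872-252330121 and chr1:237375605-237375854, both on the minus strand, for Got1 and Gldc.
Oat: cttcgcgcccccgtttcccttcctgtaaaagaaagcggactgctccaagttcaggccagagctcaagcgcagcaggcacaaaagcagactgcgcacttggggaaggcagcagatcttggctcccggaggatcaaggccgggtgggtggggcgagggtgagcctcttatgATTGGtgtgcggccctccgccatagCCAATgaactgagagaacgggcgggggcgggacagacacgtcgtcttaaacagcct
Gls2: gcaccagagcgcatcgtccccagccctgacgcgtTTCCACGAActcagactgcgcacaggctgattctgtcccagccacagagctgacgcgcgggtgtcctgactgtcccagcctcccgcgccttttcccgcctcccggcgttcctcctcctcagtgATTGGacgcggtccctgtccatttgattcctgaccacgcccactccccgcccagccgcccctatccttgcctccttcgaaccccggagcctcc
Got1: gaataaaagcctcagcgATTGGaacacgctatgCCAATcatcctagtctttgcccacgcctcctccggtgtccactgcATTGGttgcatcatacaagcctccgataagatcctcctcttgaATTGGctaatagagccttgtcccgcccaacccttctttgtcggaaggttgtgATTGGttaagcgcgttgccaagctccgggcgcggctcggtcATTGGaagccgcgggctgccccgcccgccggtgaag
Gldc: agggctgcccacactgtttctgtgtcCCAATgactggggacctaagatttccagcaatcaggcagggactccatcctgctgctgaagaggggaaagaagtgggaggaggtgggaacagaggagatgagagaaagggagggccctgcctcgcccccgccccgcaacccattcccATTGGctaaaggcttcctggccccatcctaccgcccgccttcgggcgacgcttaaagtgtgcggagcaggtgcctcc

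Over the 32 members with an entry, a CCAAT match lay in 19, and in 34.0% of all 33469 promoter windows of that length. Of the 13 members higher in males that had an entry, 9 held one. Oat and several uncalled members, among them Prodh2, Tat and Kmo, held one too. TTCNNNGAA lay in 1 of the 32 members, Gls2, and in 7.67% of all windows. TATAAA lay in 6 of 32 and in 12.9% of all windows, on both strands. The cyclic AMP response element TGACGTCA lay in 0 of 32 and in 1.59% of all windows, and ATCAAT, the core that the factor encoded by Onecut1 is known to bind, in 0 of 32 and in 7.1% of all windows, on both strands. No motif overlapped another in the 4 windows shown.

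The tyrosine enzymes were not called in either direction. Tat, the tyrosine transaminase known for its induction by glucocorticoid, varied widely within males, from 396 CPM in male 4 to 1403 in male 6 (median 752), and from 651 to 1043 CPM (median 757) in females. The male range enclosed the female range, and the fit gave a log2 difference of -0.02 with a 95% interval of -0.54 to 0.50 (adjusted p = 0.955). Fah, which performs the last step of tyrosine breakdown, had the largest difference of the group and ranged from 433 to 582 CPM (median 542) in females and from 548 to 637 CPM (median 586) in males (log2 -0.15, adjusted p = 0.137). Hpd and Hgd, the dioxygenases between them, gave log2 differences of 0.12 and -0.07. Ddc, the decarboxylase of aromatic amino acids, stood at 36.1 CPM in male 4 and at 63.9 to 88.2 CPM in the other 5 males, beside 63.6 to 81.4 in females.

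In the tryptophan pathway 2 of 6 genes, the first enzyme and a late one, were higher in males (33.3%, background 22.7%). Tdo2, the dioxygenase that opens the tryptophan ring and starts the kynurenine route, ranged from 586 to 1202 CPM (median 749) in females and from 1045 to 1584 CPM (median 1237) in males. Female 12 alone reached the male range, and the other 5 females averaged 720 ± 88.5 CPM. The difference was 1.60-fold (adjusted p = 0.00242). Haao, which makes the precursor of quinolinate, did not overlap and was 1.47-fold higher in males (293 ± 37.3 against 430 ± 35.8 CPM, adjusted p = 0.000175). The enzymes between them, Kmo and Kynu, and the side-branch genes Aadat and Acmsd were not called, with log2 differences from -0.26 to 0.06. Acmsd, the decarboxylase that diverts carbon away from NAD synthesis, had the lowest CPM of the group, 8.88 to 27.9 CPM in females and 14.1 to 33.6 in males, and its 95% interval of -0.79 to 0.27 was wide.

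Of the 3 histidine enzymes measured, 1 was called (33.3%, background 43.2%). Ftcd, which passes the formimino group of histidine to folate, ranged from 260 to 298 CPM (median 279) in females and from 383 to 469 CPM (median 427) in males, with no overlap and a 1.53-fold difference (adjusted p = 4.6e-06). Hal, histidine ammonia lyase, and Amdhd1, the imidazolone propionase, varied strongly among females. Amdhd1 ranged from 17.0 to 111 CPM (median 37.3) in females and from 43.5 to 126 CPM (median 78.1) in males (log2 -0.61, SE 0.43, adjusted p = 0.282). The 3 females highest in Hal, females 12, 13 and 8 at 552, 519 and 458 CPM, were also the 3 highest in Amdhd1, at 111, 93.6 and 41.7 CPM.

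Of the lysine pair, Gcdh, the mitochondrial glutaryl-CoA dehydrogenase shared by lysine and tryptophan, ranged from 287 to 334 CPM (median 292) in females and from 416 to 488 CPM (median 445) in males. It did not overlap and was higher in males (log2 -0.58, SE 0.06, adjusted p = 4.3e-06). Aass, which opens lysine breakdown, was not called (304 ± 54.1 against 325 ± 30.7 CPM). Of the sulfur amino acid pair, Cdo1, cysteine dioxygenase, ranged from 872 to 963 CPM (median 893) in females and from 1140 to 1307 CPM (median 1197) in males, a 1.33-fold difference with no overlap (adjusted p = 0.000132). Csad, the next enzyme toward taurine, varied far more, from 64.5 to 177 CPM in females and from 33.8 CPM in male 4 to 204 CPM in males, and was not called (adjusted p = 0.890, 95% interval of log2 -0.88 to 0.73).

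Leucine, isoleucine and valine are broken down by mitochondrial complexes of several subunits. Some subunits differed between the sexes here and others did not. Of the 8 genes 4 were higher in males (50%, backgrounds 22.7% toward males and 43.2% in either direction). Pcca, the biotin-bearing subunit of propionyl-CoA carboxylase, ranged from 32.6 to 45.3 CPM (median 40.7) in females and from 53.2 to 70.2 CPM (median 57.8) in males, with no overlap and a 1.52-fold difference (adjusted p = 0.000109). Its partner Pccb averaged 163 ± 9.03 CPM in females and 164 ± 13.03 in males. Mccc1, the biotin-bearing subunit of the leucine carboxylase, was 1.27-fold higher in males (adjusted p = 0.00172), while its partner Mccc2 averaged 87.1 ± 8.53 and 84.8 ± 10.96 CPM. Bckdha and Bckdhb, the E1 subunits of the branched-chain ketoacid dehydrogenase, were 1.21-fold and 1.23-fold higher in males (adjusted p = 0.00188 and 0.00527), and Dbt, its E2 core, and Ivd, the next dehydrogenase of leucine, were not called (82.1 ± 11.4 against 87.5 ± 8.89 CPM and 135 ± 16.5 against 153 ± 13.6 CPM).

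Whether partners differed unequally was tested on the ratio of their counts within each rat, in which library scaling cancels. There were 12 pairs, picked after the values above were seen, so the tests describe these pairs and are not independent of the differences already given. They were 2-sided exact permutation tests over all assignments of the sexes, whose smallest p is 0.00216, with Benjamini-Hochberg adjustment over the 12 pairs. The Pcca to Pccb ratio lay between 0.202 and 0.297 in females and between 0.316 and 0.415 in males, and the Mccc1 to Mccc2 ratio between 0.488 and 0.636 and between 0.686 and 0.779. Neither overlapped (exact p = 0.00216, adjusted p = 0.00432 for each). Bckdhb to Dbt differed by 1.15-fold with overlap (exact p = 0.00866, adjusted p = 0.0115), and Bckdha to Dbt, at 1.29 to 1.86 in females and 1.56 to 2.26 in males, did not pass (exact p = 0.169, adjusted p = 0.203).

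The 2 alanine transaminases also differed unequally. The Gpt to Gpt2 ratio lay between 0.603 and 1.07 in females and between 2.26 and 3.85 in males (exact p = 0.00216, adjusted p = 0.00432), and Got1 to Got2 from 0.176 to 0.256 and from 0.246 to 0.397, overlapping only where female 12 exceeded male 1 (exact p = 0.00433, adjusted p = 0.00649). Gldc to Amt was 1.72-fold larger in males without overlap (exact p = 0.00216, adjusted p = 0.00432). Haao to Kmo and Sds to Agxt, which are not partners in 1 complex, were 1.53-fold and 33.0-fold larger in males, which restates the Haao and Sds differences above. Prodh to Prodh2 was 1.31-fold larger in males with overlap (exact p = 0.00433, adjusted p = 0.00649). Bckdha to Bckdhb and Ftcd to Amdhd1 did not pass (exact p = 0.807 and 0.595).

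**Figure D3:**
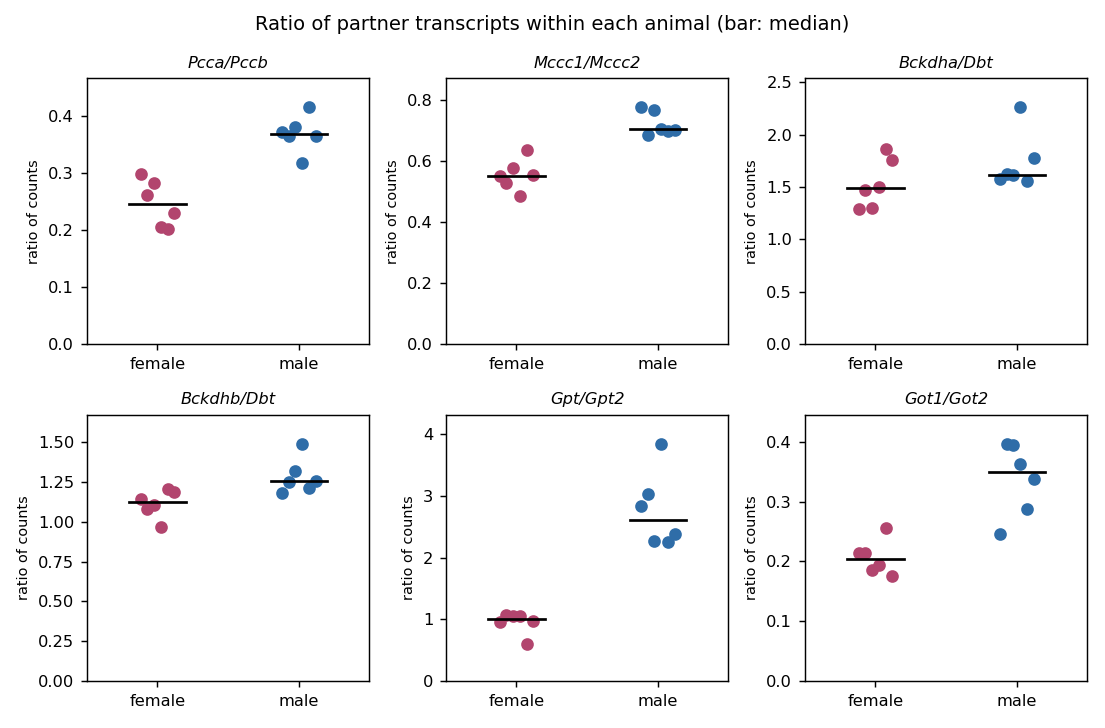
Ratio of the counts of partner genes within each rat (vertical axes from 0, no unit; points, 6 females and 6 males; bar, median). Pcca/Pccb, Mccc1/Mccc2 and Gpt/Gpt2 show no overlap between the sexes, while Bckdha/Dbt, at 1.29 to 1.86 and 1.56 to 2.26, does.

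The 23 uncalled members differed by 1.01-fold to 1.52-fold in the fit. For 19 of them the 95% interval lay within 1.5-fold in both directions, and for 4 it reached beyond, so a difference of that size was within their error. The 9 members called under 1.5-fold ran from 1.21-fold for Bckdha upward, all toward males. Spread within a sex was modest for most members: the coefficient of variation had a median of 12.3% in females and 10.8% in males, lowest for Cdo1 in females (4.03%) and Bckdhb in males (3.0%), and highest for Amdhd1 in females (71.3%) and Sds in males (48.8%).

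**Figure D4:**
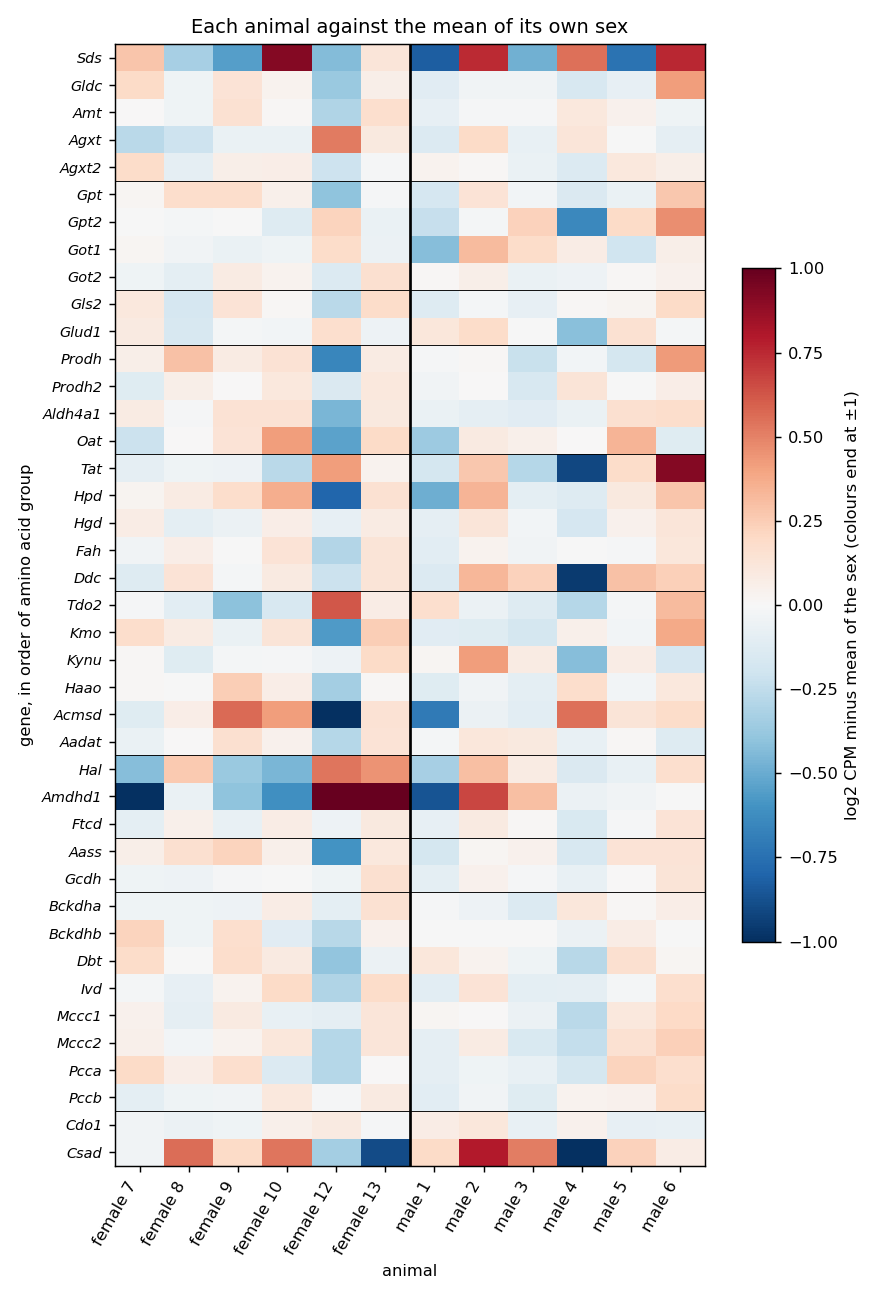
Log2 CPM of each rat minus the mean log2 CPM of its own sex (colour, red higher and blue lower, colours end at 1 log2 unit) for the 41 members in order of amino acid group, with females left and males right of the line. Female 12 is the lowest of its sex for 24 members and the highest for 9. Male 1 and male 4 are each the lowest male for 16, and those of male 4 include Tat, Ddc and Csad.

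Other genes of amino acid metabolism, taken from a list drawn up with earlier results of these data known, were called 23 times toward males (43.4% of 53 tested, background 22.7%) and 5 times toward females (9.43%, background 20.5%). Hao1, the peroxisomal glycolate oxidase that supplies glyoxylate to Agxt, ranged from 251 to 324 CPM in females and from 448 to 580 CPM in males (1.90-fold, adjusted p = 4.62e-07). Sdsl, a relative of serine dehydratase, was 1.65-fold higher in males with no overlap (15.1 ± 1.89 against 25.0 ± 2.79 CPM), and Pdxp, a phosphatase of pyridoxal phosphate, 2.12-fold (2.77 ± 1.65 against 5.75 ± 1.64 CPM, overlapping). Toward females lay Bckdk, the kinase known to inactivate the branched-chain dehydrogenase by phosphorylating its E1 subunit, which was 1.36-fold higher with no overlap (38.5 ± 4.04 against 28.2 ± 2.43 CPM, adjusted p = 0.00042). Pdxk, the pyridoxal kinase, was 1.45-fold higher in females and Psat1, of serine synthesis, 1.42-fold (adjusted p = 0.0495).

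Of 19 amino acid transporters tested, 4 had higher levels in males and 4 in females (21.1% each), shares close to the backgrounds of 22.7% and 20.5%. Slc7a5, the light subunit of the carrier that exchanges glutamine for branched-chain and aromatic amino acids, ranged from 15.3 to 18.5 CPM in females and from 1.35 to 3.04 CPM in males, a 9.13-fold difference (adjusted p = 7.87e-10). Its heavy-chain partner Slc3a2 was not called (64.1 against 75.5 CPM). Slc16a10, an aromatic amino acid carrier, was 1.81-fold and Slc1a2, a glutamate carrier of pericentral cells, 1.55-fold higher in females. Slc25a22, a mitochondrial glutamate carrier, was 1.54-fold, Slc38a4 1.20-fold and Slc38a2, both sodium-coupled carriers of small neutral amino acids, 1.19-fold higher in males.

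Of 17 hormone receptors and transcription factors of this metabolism, 4 were higher in males (23.5%, background 22.7%) and 5 in females (29.4%, background 20.5%). Gcgr, the glucagon receptor, was 1.19-fold higher in males with no overlap (204 ± 8.24 against 244 ± 26.9 CPM, adjusted p = 0.00934), Cebpb, a factor known to bind promoters of gluconeogenic genes, 1.54-fold with no overlap, and Tcf7l2 1.30-fold. Insr, the insulin receptor, was 1.48-fold higher in females with no overlap (44.96 ± 6.804 against 30.4 ± 2.26 CPM, adjusted p = 0.000186). The liver factor Onecut1 was 3.71-fold higher in females (adjusted p = 0.0191), at 39.6 to 67.9 CPM against a wide male range of 2.35 to 33.8. Hnf4a was 1.49-fold higher in females with overlap (141 to 190 against 84.6 to 163 CPM, adjusted p = 0.00415). Nr3c1, the glucocorticoid receptor, was not called (132 against 113 CPM, adjusted p = 0.068).

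Markers of other liver cells were measured in the same libraries. Kupffer cell markers were called for 2 of 8, both higher in females (25%, background 20.5%). They summed to between 186 and 277 CPM in females and between 109 and 404 CPM in males. Male 4 was the highest, and male 5 came next at 196.5 CPM. The 3 sinusoidal endothelial markers with a row were all higher in females (background 20.5%), with sums of 70.4 to 87.6 against 24.9 to 71.0 CPM. Stellate cell markers gave 1 of 7 in each direction (14.3% each, backgrounds 22.7% toward males and 20.5% toward females) and bile duct markers 0 of 3. Their part in the enzyme results was not tested.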

How the data were processed

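Livers were kept in RNAlater, RNA was taken with Trizol and libraries were made with an Illumina TruSeq kit from 1 µg of total RNA, per the labels' protocols. The deposited files gave raw read counts by gene symbol, not normalized by the authors. The submitters' processing notes list Bowtie2 2.0.2 and DESeq, with rn4 as genome. Which program, annotation and strand setting made the counts is not given in the sources used here. Reads that matched more than 1 gene model were in no gene's count. Without the strand setting, whether a gene's count holds antisense reads cannot be told. The 5 rows that name no gene held 27.1% to 31.7% of a library and were left out.

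Counts were tested with edgeR 4.0.16 (R 4.3.3): filterByExpr (minimum count 10, minimum total 15), TMM factors and the robust quasi-likelihood F test of sex. Adjusted p-values are Benjamini-Hochberg values over all 9943 genes tested, called under 0.05. Each SE was taken from the log2 fold change and its F value. All 30 within-sex pairs of libraries differed beyond sampling noise (lowest chi-square 6.02 per degree of freedom). No label says how animals were batched, and the animal numbers of the sexes do not intersect, so batches that followed them cannot be told apart from sex. On simulated counts for this comparison, with 9988 genes tested, the share recovered was 67.3% at 1.5-fold, 98.7% at 2-fold and 100% at 4-fold, and 10 of 191 calls were false. Only 200 genes were changed in the simulation, whereas 43.2% of genes were called in the data. No simulated animal was made to stand apart from its sex. The recovered and false shares therefore need not hold for the real comparison.

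The members, lists and tests were chosen with earlier results of these data known. The rule gave per-animal values to members called at 1.5-fold or more and to the largest difference of each amino acid group, and named up to 3 genes per direction of each other list with at least 5 CPM. Genes outside it, such as Slc3a2 and Nr3c1, were chosen after their values were seen, as were the ratio pairs and promoter motifs. All 41 symbols matched a RefSeq gene table of GRCr8, used for names only. Promoters came from a RefSeq table of GRCr8 (32 of 41 matched; Sds, Gpt, Acmsd, Hal, Amdhd1, Prodh, Bckdha, Mccc2 and Cdo1 had no entry). Alternatives were other scalings, filters, DESeq2 1.42.0, limma-voom (limma 3.58.1) and leaving out animals.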

Additional observations from a re-analysis of the deposited data

Results flagged for a closer look

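Of 82 groups of 6 animals tested, 10 held a value far from the other 5 of its sex by Dixon's test, which chance gives in about 1 in 20 groups. The groups are the 41 members in the same 12 animals and so are not independent. Whether 10 exceeds chance cannot be judged from that rate. Female 12 gave 6 of the 10. Its Gpt (82.4 CPM, others 108 to 123), Prodh (64.0, others 104 to 123), Aldh4a1 (321.9, others 441 to 491) and Aass (198, others 310 to 350) were low, and its Gpt2 (137, others 107 to 117) and Got1 (93.2, others 78.3 to 83.0) were high. Male 6 gave 3, all high: Gldc (415 CPM, others 279 to 304), Prodh (167, others 106 to 125) and Kmo (159, others 109 to 127.1). Female 13 had high Gcdh (334 CPM, others 287 to 296). The Gpt, Got1, Gldc and Gcdh calls held without these animals.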

How the results depend on the processing

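All 18 called members kept call and direction under RLE, upper quartile and library-total scaling, without the 20 most abundant genes, with DESeq2, with limma-voom, without a low-count filter and with a filter at a mean of 1 CPM. Leaving out each animal gave 16 to 18 members called toward males and 1 toward females, and 37 to 47 other listed genes called beside 45. Over all genes it gave 2019 to 2238 called toward males and 1810 to 2389 toward females. Gpt2 lost its call without female 10 or male 6. Agxt was called without female 12 and Glud1 without male 4. Without male 4 and female 12 together, 2 members were higher in females, since Prodh2 was called (log2 0.16, adjusted p = 0.0491), and Agxt and Glud1 were called toward males. No paired analysis was possible because the sexes share no animal number.

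The sign of the log2 difference turned for some uncalled members. Without male 4 and female 12 together the log2 difference was 0.036 for Aldh4a1, -0.065 for Ddc, 0.018 for Acmsd, -0.13 for Hal and 0.013 for Pccb. Pccb was 0.0016 with RLE, 0.019 with upper quartile, 0.015 with library totals, 0.0061 without the 20 most abundant genes, 0.0020 with DESeq2 and 0.0035 at a mean of 1 CPM. Tat was 0.0065 with upper quartile, 0.0035 with library totals and 0.086 with limma-voom, which gave -0.044 for Hal and 0.023 for Csad. Leaving out single animals gave -0.026 to 0.051 for Agxt2, -0.069 to 0.038 for Aldh4a1, -0.15 to 0.21 for Tat, -0.11 to 0.081 for Ddc, -0.11 to 0.10 for Hal, -0.14 to 0.00067 for Aass, -0.034 to 0.029 for Pccb and -0.27 to 0.084 for Csad. It gave log2 ratio differences of -0.015 to 0.076 for Bckdha to Bckdhb and -0.0061 to 0.53 for Ftcd to Amdhd1; the other 10 ratios kept their sign and, by the unadjusted exact p, their side of 0.05. The difference in library totals ran from -3868000 to 171000 counts, positive only without male 6. The cause was not tested. Of the simulated differences, those of 1.5-fold were recovered least often (67.3%), and smaller ones were not simulated.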

Other observations

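Reads that matched more than 1 gene model, which are in no gene's count, made up 0.359% to 0.388% of a female library and 1.24% to 2.20% of a male library, with no overlap. Whether any of them came from the enzyme genes was not tested.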
